A study of Caenorhabditis elegans with 12 samples.

Results

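The genes described here encode 10 maternal RNA-binding regulators of early cell fate in Caenorhabditis elegans: pie-1, mex-1, mex-3, mex-5, mex-6, pos-1, oma-1, oma-2, spn-4 and puf-5. They were chosen by gene symbol, with earlier results of these data known, and are 10 of the 46748 genes in the count table. All 10 were among the 14511 genes with enough counts to be tested. RNA of whole worms was measured by RNA-Seq at day 1 of adulthood in crh-1(syb385) (strain VDL786), crh-1(n3315) (strain MT9973) and wild type (N2), with 4 biological replicates of each. In crh-1(syb385), an intronic CRISPR/Cas9 deletion removes the downstream reverse complementary match (RCM) and with it circ-crh-1, the circRNAs of the crh-1 gene. The crh-1(n3315) strain is described as null for CREB, the transcription factor that crh-1 encodes. All worms were age-synchronized and fed E. coli OP50. The study's general methods place adults on plates with FUdR, an inhibitor of DNA synthesis that stops progeny, unless indicated otherwise, and the sample labels name none, so FUdR exposure is not known here.

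Oocytes and early embryos of C. elegans run largely on mRNA made by the mother. The zygote is transcriptionally quiet, and its first cell fates are set by RNA-binding proteins that decide which maternal mRNAs are translated, stored or destroyed in each blastomere. Most of the 10 proteins carry CCCH zinc fingers (PIE-1, MEX-1, MEX-5, MEX-6, POS-1, OMA-1, OMA-2), while MEX-3 has KH domains, SPN-4 an RNA recognition motif and PUF-5 Pumilio repeats. In an adult hermaphrodite, their mRNAs lie mainly in the oocyte-forming germline and in embryos still held in the uterus. Whole-worm RNA is a bulk measure, so more germline or embryo tissue and more RNA per cell cannot be told apart in any of the comparisons.

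Total counts per library lay between 18172086 and 21404887 in crh-1(syb385), between 20296003 and 25369267 in crh-1(n3315), and between 16348586 and 22174508 in wild type. The 10 genes together took 0.346% ± 0.0194 of all counts in crh-1(syb385), 0.512% ± 0.0430 in crh-1(n3315) and 0.283% ± 0.0318 in wild type (SD, n = 4 each). The smallest single value was 738 counts, for pie-1 in wild-type replicate 3, and the largest was 20538 counts, for puf-5. The count of crh-1 itself was 50.1 ± 2.41 CPM (library-size scaled counts, TMM-normalized) in libraries labelled crh-1(n3315), against 42.4 ± 4.06 CPM in wild type. It was therefore not lowered, and it could not check that label, so crh-1(n3315) stands here for the libraries so labelled. In crh-1(syb385), crh-1 stood at 44.8 ± 1.41 CPM, and since that deletion is intronic the count could not check it either. Wild-type replicate 3 stood apart in several gene groups: the summed level of 16 somatic genes was 1599.7 CPM there and reached at least 3069 CPM in the other wild-type libraries, and the summed level of 13 oocyte and eggshell genes was 5330.0 CPM there and at least 6291 CPM in the others. The numbers of the 10 genes that passed relative to wild type are given with and without this library. Most changes of single genes and most results of other gene lists are given only with it.

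The genes lie on chromosomes I to V (build WBcel235, coordinates of the count table). Those encoding the zinc-finger proteins are pie-1 (WBGene00004027, III:12426862-12429177), mex-1 (WBGene00003228, II:11968637-11972334), mex-5 (WBGene00003230, IV:13353723-13356089), mex-6 (WBGene00003231, II:9524174-9526366), pos-1 (WBGene00004078, V:8414085-8415255), oma-1 (WBGene00003864, IV:8888976-8890987) and oma-2 (WBGene00003865, V:8029439-8031214). The others are mex-3 (WBGene00003229, I:127297-134065), spn-4 (WBGene00004984, V:6783186-6784922) and puf-5 (WBGene00004241, II:8575541-8577722). All are annotated as protein-coding, and spn-4 alone lies on the minus strand. Exonic length, over which reads were counted, ran from 1119 nt for pos-1 to 2004 nt for puf-5. The longest annotated 3′UTR was 108 nt in pie-1 and 688 nt in mex-3, the extremes of the 10.

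Levels per exonic length were compared first, as TPM (counts per exonic length, scaled to the same sum in each library). In wild type, pos-1 was the most abundant of the 10 with 516 ± 41.8 TPM and pie-1 the least with 69.7 ± 13.5 TPM. Every one of them was among the better expressed genes of the worm, since pos-1 exceeded 98.3% and pie-1 81.1% of the tested genes in mean wild-type TPM. Between these ends stood spn-4 (357 ± 68.0 TPM), puf-5 (336 ± 59.7 TPM), mex-5 (287 ± 47.6 TPM), oma-2 (209 ± 42.4 TPM), mex-3 (188 ± 40.8 TPM), mex-6 (167 ± 31.96 TPM), mex-1 (159.8 ± 33.0 TPM) and oma-1 (130.3 ± 30.9 TPM; SD, n = 4 each). In their ranges over libraries, only the top and bottom places were set apart from their neighbours: the 4 libraries of pos-1 did not overlap those of spn-4, nor those of oma-1 the libraries of pie-1, whereas each neighbouring pair between spn-4 and oma-1 overlapped. Within single libraries the order was steadier, since 5 of those 7 pairs kept it in 4 of 4 wild-type libraries. The exceptions were spn-4 above puf-5, in 2 libraries, and mex-6 above mex-1, in 3.

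The order was much the same in the mutants. In crh-1(n3315), pos-1 again led with 1032 ± 109 TPM, followed by spn-4 (783 ± 151 TPM), puf-5 (602 ± 50.2 TPM) and mex-5 (562 ± 43.1 TPM), and pie-1 was last with 102 ± 15.3 TPM. In crh-1(syb385), pos-1 had 606 ± 33.1 TPM and pie-1 75.3 ± 2.72 TPM, but spn-4, at 381 ± 10.2 TPM, stood behind puf-5 (458 ± 21.6 TPM) and mex-5 (383 ± 23.0 TPM). The libraries of spn-4 and mex-5 overlapped there, while those of puf-5 lay above both. Within single libraries, mex-3 stood above mex-6 in 4 of 4 of wild type and 2 of 4 of crh-1(n3315). In crh-1(syb385) mex-6 stood above mex-3 in 4 of 4.

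**Figure D1:**
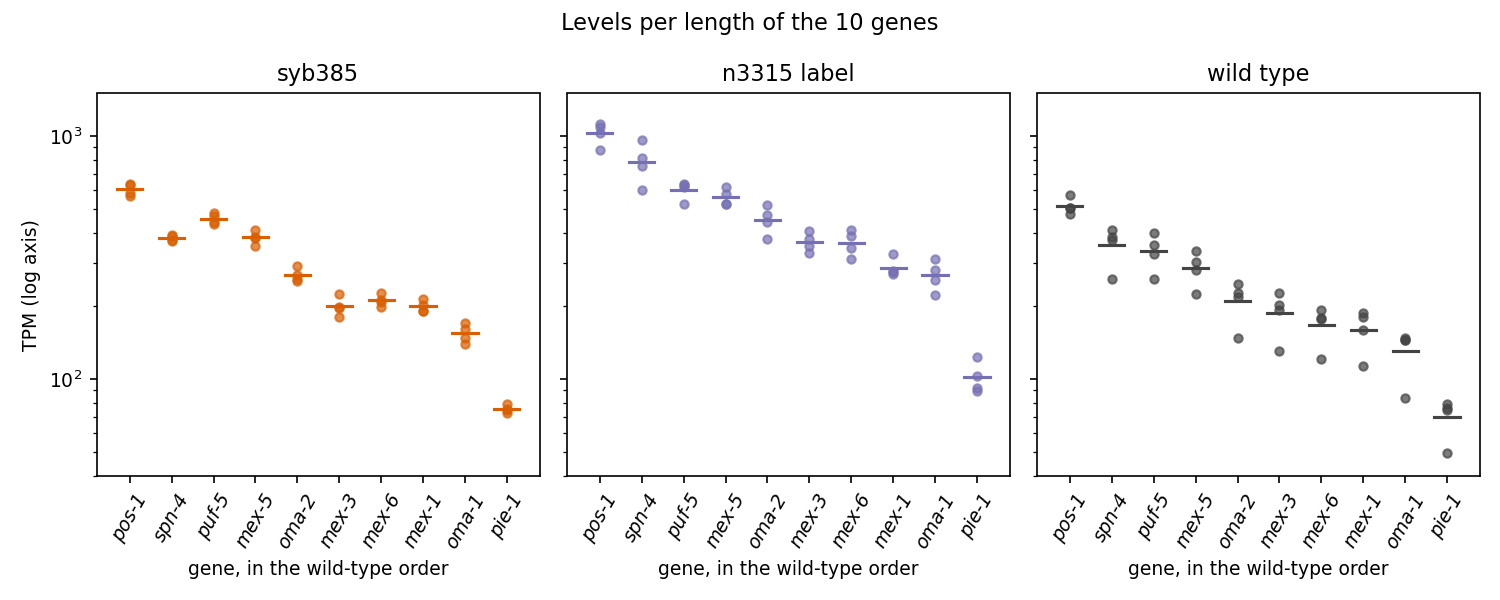
TPM on a log axis for each of the 10 genes in the 4 libraries (points) of crh-1(syb385), crh-1(n3315) and wild type, with genes in the wild-type order and horizontal bars at the mean. pos-1 was highest and pie-1 lowest in each genotype, and spn-4 stood next to pos-1 except in crh-1(syb385), where puf-5 and mex-5 were higher.

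The first comparison asked how loss of circ-crh-1 changed these mRNAs. Relative to wild type, 6 of the 10 genes were upregulated in crh-1(syb385) at an adjusted p below 0.05 (quasi-likelihood F-test of edgeR, p adjusted after Benjamini-Hochberg for all tested genes) and none fell, while 7.42% of all tested genes were higher and 8.88% lower by the same rule. The changes were small: the median over the 10 genes was a log2 fold change of 0.43, or 1.35-fold, against -0.05 over all tested genes. None reached the further threshold of 2-fold set for a differentially expressed gene (DEG), which 2.24% of tested genes passed upward. Scaling the libraries to oocyte and eggshell genes instead of TMM moved the median of all tested genes by -0.54 on the log2 scale and called 55.8% of them lower. On that scale the median of the 10 was -0.086, none was higher and 3 (pie-1, mex-3, spn-4) were lower.

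The genes with the largest rises encode a regulator of oocyte translation and a polarity effector. puf-5, whose Pumilio protein represses maternal mRNAs such as glp-1 during oocyte growth, had 656, 691, 633 and 710.2 CPM in crh-1(syb385) replicates 1 to 4, against 415, 486, 372 and 519 CPM in wild type. All mutant libraries lay above all wild-type libraries, and the fold change was 1.502 (95% confidence interval 1.28 to 1.76, adjusted p = 0.00193). mex-5, which acts with mex-6 downstream of the PAR proteins to keep germline determinants out of the anterior of the zygote, had 523, 553, 533 and 593 CPM in crh-1(syb385), against 349, 405, 316 and 428 CPM in wild type. Here too the genotypes did not overlap, and mex-5 was 1.47-fold higher (1.26 to 1.71, adjusted p = 0.00199).

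Of the other zinc-finger paralogues, mex-6 and oma-2 rose and oma-1 did not pass. mex-6 had 284, 294, 279.9 and 318 CPM in crh-1(syb385), against 213, 229.8, 165 and 238 CPM in wild type, a 1.39-fold rise without overlap (1.17 to 1.65, adjusted p = 0.0107). oma-2, which with oma-1 is needed for oocyte maturation and later holds back transcription in the early embryo, had 294, 293, 296 and 332 CPM in crh-1(syb385), against 213, 237, 164 and 246 CPM in wild type. It was 1.41-fold higher (1.18 to 1.69, adjusted p = 0.0113), and again no library overlapped. oma-1 had 199.7, 211, 177 and 225 CPM in crh-1(syb385), against 164, 179, 108 and 168 CPM in wild type. Its replicate 3 in the mutant fell just below the highest wild-type library, and its 1.32-fold difference (1.07 to 1.62) missed the threshold at an adjusted p of 0.0689. The call on oma-1 depended on the setting, with adjusted p between 0.0280 and 0.302 over the alternatives other than leaving out libraries. The highest of these was for a change in the other direction, log2 -0.12, when libraries were scaled to oocyte and eggshell genes.

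mex-1 and pos-1 were also higher. mex-1, needed for the correct distribution of germline factors and for blastomere identity, had 269, 279, 255 and 296 CPM in crh-1(syb385), against 188, 230.0, 153 and 227 CPM in wild type. pos-1, which represses translation of glp-1 and of neg-1, had 480.0, 479.7, 501 and 525 CPM in crh-1(syb385), against 358, 383, 383 and 416 CPM in wild type. The genotypes were separate for both genes. The rise was 1.38-fold for mex-1 (1.15 to 1.64, adjusted p = 0.0159) and 1.29-fold for pos-1 (1.13 to 1.47, adjusted p = 0.0115). mex-1 missed the threshold without crh-1(syb385) replicate 4 (adjusted p = 0.0567), the highest of the adjusted p from 0.00609 upward that leaving out single libraries gave.

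The other 3 genes did not pass the test. pie-1, which blocks transcription in the germline blastomeres, had 64.2, 59.8, 59.9 and 65.5 CPM in crh-1(syb385), against 56.1, 57.0, 40.2 and 55.4 CPM in wild type. Its libraries did not overlap, yet the difference of 1.19-fold had an adjusted p of 0.161. mex-3, the repressor of pal-1 in anterior blastomeres, had 247, 264, 254 and 303 CPM in crh-1(syb385), against 233, 239, 171 and 267 CPM in wild type. spn-4, which acts in spindle orientation and in the control of blastomere fate, had 433, 420.4, 425 and 445 CPM in crh-1(syb385), against 375, 431, 285 and 373 CPM in wild type. Libraries of the genotypes overlapped for both, and the intervals of their fold changes, 0.982 to 1.41 for mex-3 (adjusted p = 0.216) and 0.973 to 1.43 for spn-4 (adjusted p = 0.240), included no change. Over the 10 genes, 7 had every crh-1(syb385) library above every wild-type library, which 9.79% of tested genes also had. Without wild-type replicate 3, again 6 genes passed, when 1764 of 14739 tested genes were higher, and the median log2 fold change was 0.36.

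**Figure D2:**
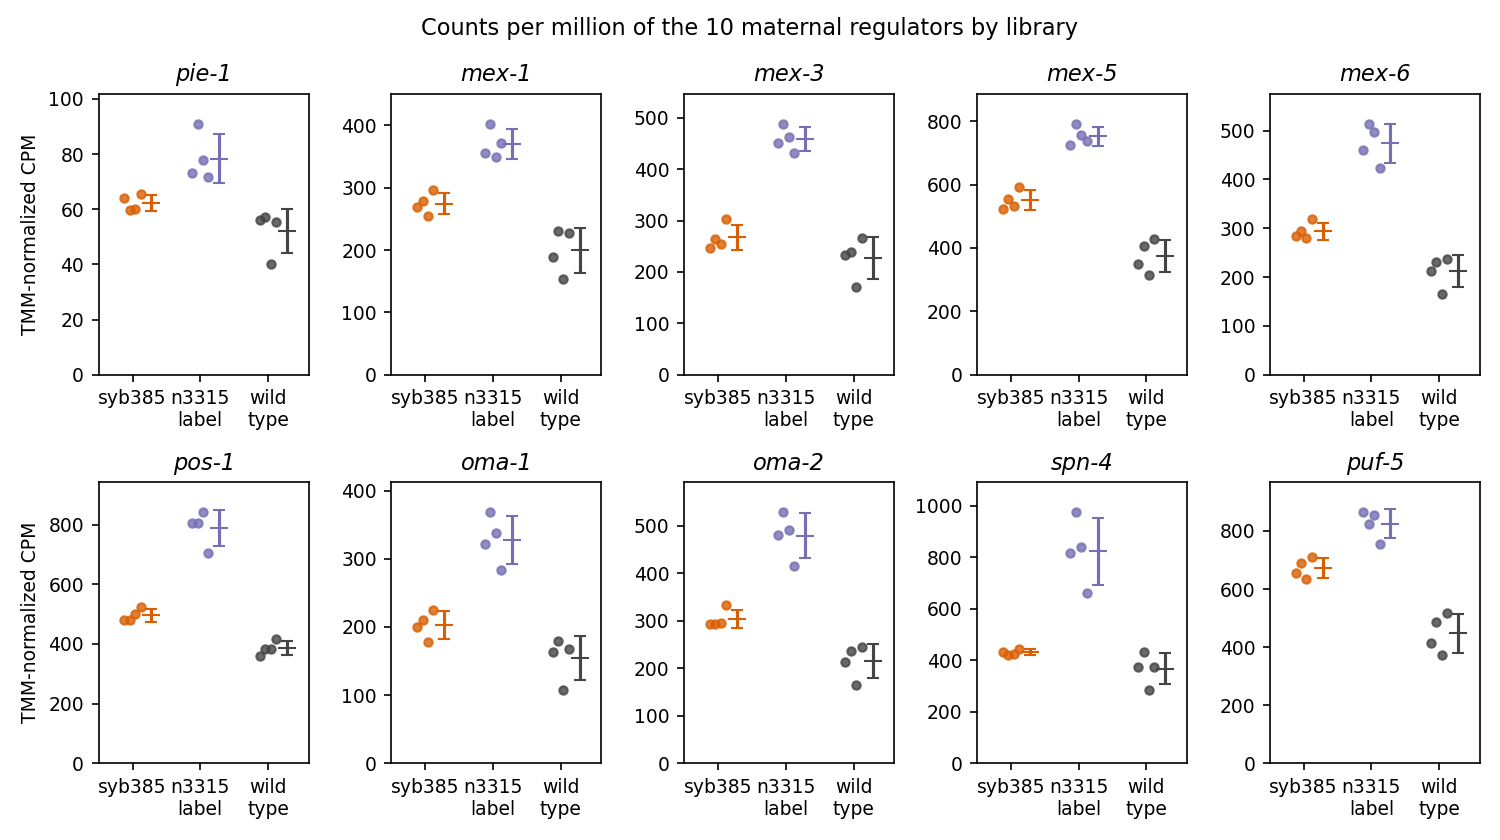
TMM-normalized CPM of each gene in the 4 libraries (points) of crh-1(syb385), crh-1(n3315) and wild type, each axis starting at 0, with bars for the mean and SD. Libraries labelled crh-1(n3315) lay above all others for all 10 genes, and crh-1(syb385) lay above wild type without overlap for 7 of them on this scale.

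The second comparison was of crh-1(n3315), so labelled, with wild type. In the mutant libraries, all 10 genes were upregulated at an adjusted p below 0.05 (edgeR, as above), and 20.3% of tested genes were higher and 21.7% lower by the same rule. The median log2 fold change was 1.02, or 2.03-fold, against -0.04 over all tested genes, and 7 genes (mex-3, mex-5, mex-6, pos-1, oma-1, oma-2, spn-4) were DEGs with at least a 2-fold rise, as were 4.17% of tested genes. Scaling to oocyte and eggshell genes moved the median of all tested genes by -0.90 and called 1.39% of them higher and 72.7% lower. On that scale the median of the 10 was 0.13, mex-6, oma-2 and spn-4 remained higher, and pie-1 was lower (adjusted p = 0.0154). The 7 genes lay close to the 2-fold line, from 2.01-fold for mex-5 to 2.25-fold for spn-4. Without wild-type replicate 3, 4 genes (mex-6, pos-1, oma-2, spn-4) were still past 2-fold, while all 10 remained past the adjusted p.

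The largest rise was that of spn-4, with 817, 975, 842 and 659.9 CPM in crh-1(n3315) replicates 1 to 4, against 285 to 431 CPM in wild type. Its mutant libraries spread more widely than those of the other genes (CV 15.7%) but none came near the wild-type range, and the fold change was 2.25 (1.85 to 2.73, adjusted p = 1.01e-05). mex-3 had 452, 489, 463 and 431 CPM in crh-1(n3315), against 171 to 267 CPM in wild type, a 2.02-fold rise (1.68 to 2.42, adjusted p = 2.05e-05). Neither gene had passed the test in crh-1(syb385).

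Both paralogous pairs rose as well. mex-6 had 461, 514, 496 and 423 CPM in crh-1(n3315), against 165 to 238 CPM in wild type, and mex-5 had 724, 793, 757 and 738 CPM, against 316 to 428 CPM in wild type. The rise was 2.24-fold for mex-6 (1.89 to 2.66, adjusted p = 3.72e-06) and 2.01-fold for mex-5 (1.73 to 2.34, adjusted p = 5.08e-06). oma-1 had 321, 369, 338 and 284 CPM in crh-1(n3315), against 108 to 179 CPM in wild type, and oma-2 had 479.8, 528, 491 and 416 CPM, against 164 to 246 CPM in wild type. These were rises of 2.12-fold (1.72 to 2.62, adjusted p = 3.83e-05) and 2.23-fold (1.86 to 2.67, adjusted p = 6.78e-06), with replicate 4 the lowest mutant library for mex-6, oma-1 and oma-2.

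pos-1 had 806, 804, 842 and 704 CPM in crh-1(n3315), against 358 to 416 CPM in wild type. It was the one gene of the 10 that was not lowest in wild-type replicate 3, and its 2.05-fold rise (1.79 to 2.34) had the smallest adjusted p of the 10, 1.19e-06. The rises below 2-fold were those of mex-1, puf-5 and pie-1. mex-1 had 355, 403, 349.5 and 371 CPM in crh-1(n3315), against 153 to 230.0 CPM in wild type (1.85-fold, 1.55 to 2.21, adjusted p = 5.0e-05), and puf-5 had 865, 826, 855 and 756 CPM, against 372 to 519 CPM in wild type (1.84-fold, 1.57 to 2.16, adjusted p = 2.22e-05). pie-1 had 73.0, 91.1, 77.8 and 71.8 CPM in crh-1(n3315), against 40.2 to 57.0 CPM in wild type, and its 1.501-fold rise (1.26 to 1.79, adjusted p = 0.00117) was the smallest of the 10. No gene had a mutant library within the wild-type range, a separation seen upward in 20.5% of tested genes.

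**Figure D3:**
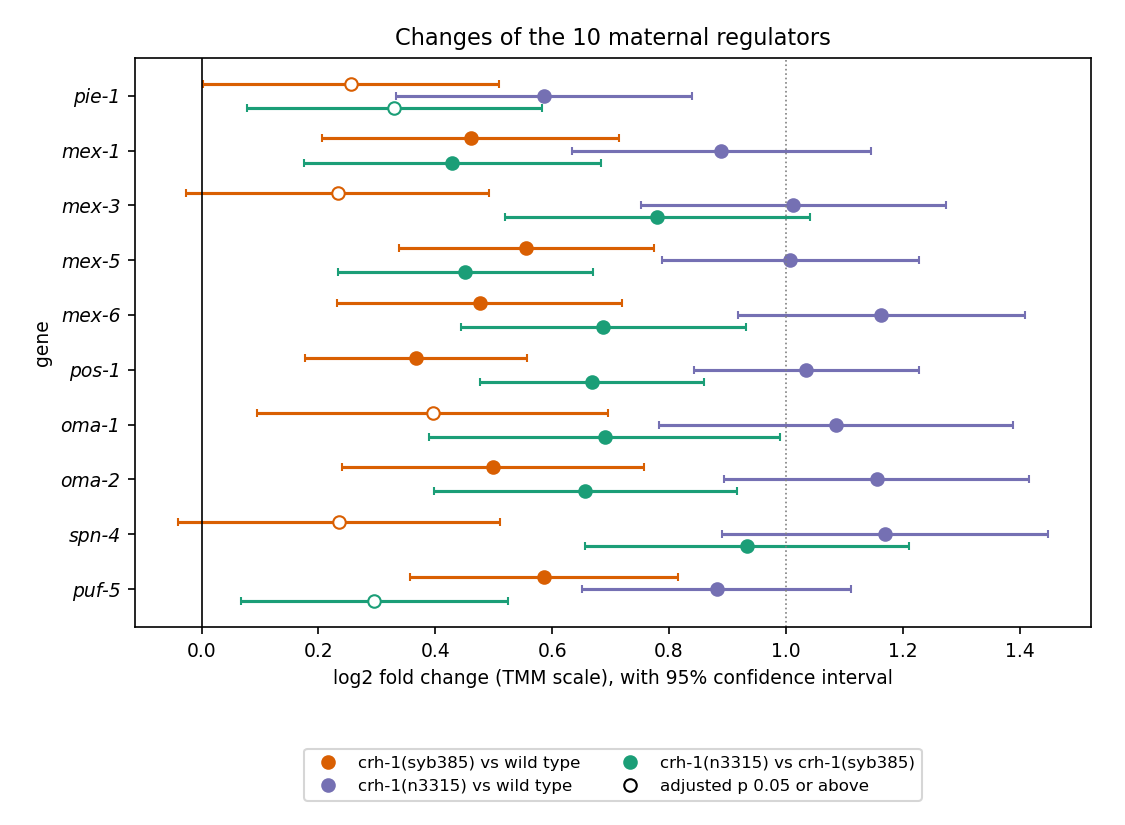
Log2 fold changes on the TMM scale with 95% confidence intervals for each gene in crh-1(syb385) and in crh-1(n3315) relative to wild type and in crh-1(n3315) relative to crh-1(syb385), with open points at an adjusted p of 0.05 or above and a dotted line at 2-fold. All point estimates were above 0 on this scale, and 8 of the 10 in crh-1(syb385) relative to wild type were below 0 when libraries were scaled to oocyte and eggshell genes.

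The third comparison tested the mutants against each other, which is the test of whether their changes differed in size. All 10 genes had every crh-1(n3315) library above every crh-1(syb385) library, as had 19.2% of tested genes, and 8 passed an adjusted p of 0.05 (edgeR, as above), against 10.6% of tested genes upward and 7.42% downward. The median log2 difference was 0.66, or 1.58-fold, against -0.02 over all tested genes, and none of the 10 reached 2-fold, which 1.49% of tested genes did upward. When libraries were scaled to oocyte and eggshell genes, which called 1.8% of tested genes higher and 23.9% lower, the median of the 10 was 0.30, 5 genes were higher, and pie-1 and puf-5 turned to -0.038 and -0.064.

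spn-4 differed most, 1.91-fold (1.58 to 2.32, adjusted p = 0.000527), followed by mex-3 at 1.72-fold (1.43 to 2.06, adjusted p = 0.00126). Those were the genes with the smallest changes in crh-1(syb385), log2 0.24 and 0.23. oma-1, mex-6, pos-1 and oma-2 differed by between 1.58-fold and 1.61-fold (adjusted p between 0.000428 and 0.00533). mex-5 (1.37-fold, 1.18 to 1.59, adjusted p = 0.00877) and mex-1 (1.35-fold, 1.13 to 1.61, adjusted p = 0.0235) differed less. For mex-1 the call was lost without any of 4 single libraries: crh-1(n3315) replicate 2 (adjusted p = 0.0800) and crh-1(syb385) replicates 1, 2 and 3 (0.0614, 0.0560 and 0.0738). pie-1 and puf-5 did not pass, with differences of 1.26-fold (1.06 to 1.497, adjusted p = 0.0647) and 1.23-fold (1.05 to 1.44, adjusted p = 0.0681). Without wild-type replicate 3, which is in neither group but enters the gene filter, the scaling and the shared estimate of spread, they passed at 0.00579 and 0.00899, the lowest of ranges that reached 0.215 and 0.165 when other single libraries were left out. puf-5 thus had the largest rise of the 10 in crh-1(syb385) and, after pie-1, the smallest in crh-1(n3315), as log2 values of 0.59 and 0.88.

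Across libraries the 10 genes moved together, as their centred log2 CPM (prior count of 2) showed. Averaged over the genes, the centred level was between -0.12 and 0.05 in the libraries of crh-1(syb385), between 0.40 and 0.66 in crh-1(n3315), and between -0.79 and -0.31 in wild type. Wild-type replicate 3 was the lowest of its genotype for 9 genes. Replicate 4 was the highest library of crh-1(syb385) for all 10 genes, while in crh-1(n3315) replicate 2 was the highest and replicate 4 the lowest for 8 genes each. Other groups of genes shared these deviations. Wild-type replicate 3 was also lowest in the somatic and oocyte sums given above. Replicate 4 of crh-1(syb385) had the highest summed level of its genotype for oocyte and eggshell genes (9400.2 CPM) and for the other RNA-binding regulators described below (12455 CPM), as had crh-1(n3315) replicate 2 (11211 and 14337 CPM). The part of these deviations in the results was not tested.

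The members closest to each other over the 12 libraries were mex-6 and oma-2, whose centred profiles differed by a root mean square of 0.0341 on the log2 scale, and mex-1 and mex-5, at 0.0770. The most distant pair was pie-1 and spn-4, at 0.287. Compared with the mean profile of the 10, mex-6 (0.0704) and oma-2 (0.0729) were the nearest members, and pie-1 (0.183) and spn-4 (0.159) the farthest. That mean includes each member itself, which lowers these values. Against the mean of the other members they were 0.0783, 0.0810, 0.203 and 0.176. The nearest genes outside the 10 were puf-10, egg-6 and szy-4, at 0.0700, 0.0704 and 0.0730. Of all tested genes, puf-10 and egg-6 were nearer to that mean than any member, whereas spn-4 ranked 211 and pie-1 358. Many genes outside the 10 thus followed the mean more closely than some members did. puf-10 belongs to the Pumilio family of puf-5 and is annotated as a pseudogene, so reads from closely similar puf genes may be divided between them or left out. It had 37.2 ± 3.46 CPM in crh-1(syb385), 57.0 ± 4.39 CPM in crh-1(n3315) and 27.3 ± 4.23 CPM in wild type (SD, n = 4 each). Relative to wild type, egg-6 had log2 fold changes of 0.42 in crh-1(syb385) and 1.07 in crh-1(n3315), and szy-4 of 0.39 and 1.03.

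**Figure D4:**
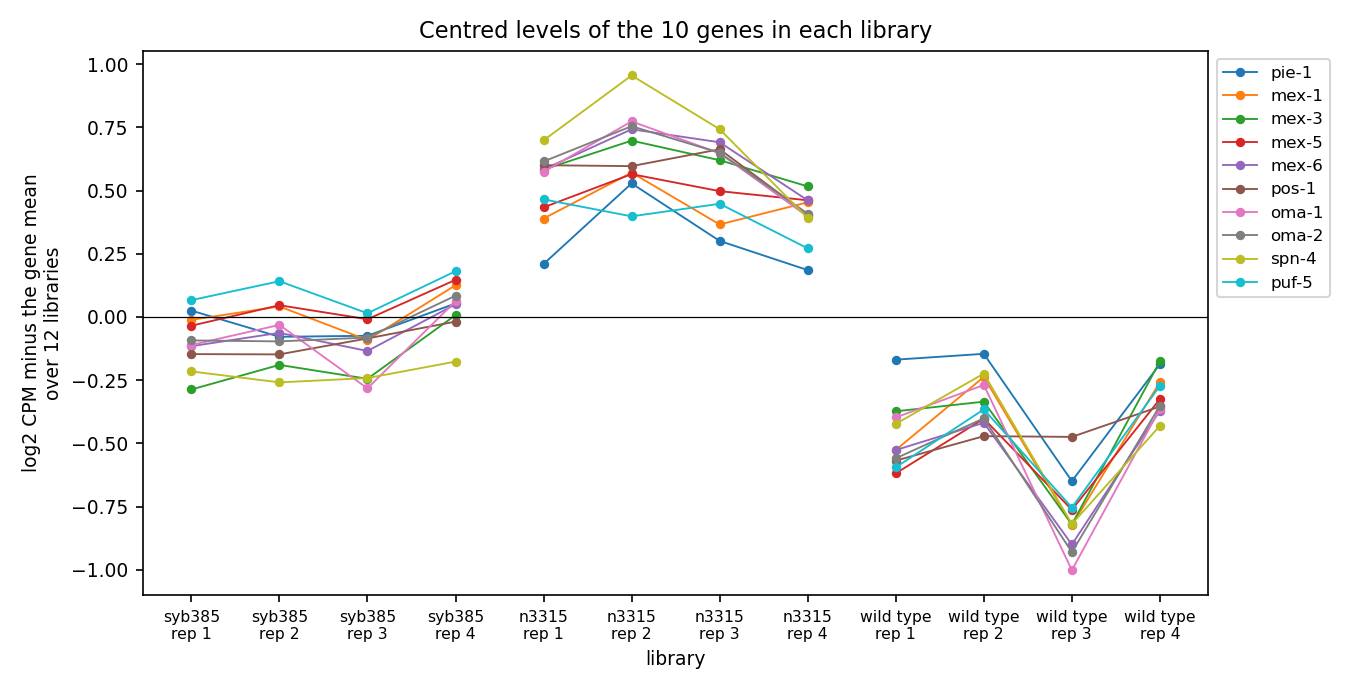
Log2 CPM of each of the 10 genes minus its mean over the 12 libraries, for the replicates of crh-1(syb385), crh-1(n3315) and wild type on the horizontal axis, with lines that only join the points of a gene, since replicates have no order. Wild-type replicate 3 was the lowest of its genotype for 9 genes, with pos-1 the exception.

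Balance within the paralogous pairs does not depend on library scaling, because it is a ratio within a library. The TPM ratio of oma-2 to oma-1 was 1.74 ± 0.138 in crh-1(syb385), 1.69 ± 0.0290 in crh-1(n3315) and 1.62 ± 0.127 in wild type (SD, n = 4 each), and the libraries of the genotypes overlapped. For mex-5 to mex-6 the ratio was 1.82 ± 0.0239 in crh-1(syb385), 1.55 ± 0.0978 in crh-1(n3315) and 1.73 ± 0.113 in wild type. All 4 ratios of crh-1(n3315) lay below those of crh-1(syb385), with an exact two-sided permutation p of 0.0286, the smallest that 4 against 4 libraries can give. Adjusted over the 9 ratio tests made, which included the pair pos-1 and mex-1, that p was 0.171, and no ratio passed. How reads of near-identical stretches in mex-5 and mex-6 were assigned was not checked, since no genome sequence was used.

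Exons of 3 of the genes overlap a gene on the opposite strand, and the stated options of the counting name no strand setting. pie-1 and snr-6, which encodes a core protein of small nuclear ribonucleoproteins, share 6 nt. snr-6 had 90.6 ± 17.4 CPM in crh-1(n3315) and 120 ± 33.8 CPM in wild type, a log2 fold change of -0.40 (adjusted p = 0.0746), and in crh-1(syb385), with 130.3 ± 15.6 CPM, one of 0.12 (adjusted p = 0.687). Whether reads over the shared stretch affected the count of pie-1 was not tested. mex-1 shares 22 nt with acbp-6, which had at most 93 counts in a library, against at least 2812 for mex-1. spn-4 shares 3 nt with ZC404.15, which had at most 8 counts.

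The other genes of this regulatory network were taken from lists by name. By the same rule, 7.42% of all tested genes were higher and 8.88% lower in crh-1(syb385). In crh-1(n3315) these shares were 20.3% and 21.7%. Among 36 other maternal and germline RNA-binding regulators, 5 were higher and 1 lower in crh-1(syb385) relative to wild type, with a median log2 fold change of 0.18. The 5 were puf-3 (log2 0.71), puf-6 (0.58), puf-7 (0.58), puf-10 (0.45) and puf-11 (0.72), the largest rise of the list. The other Pumilio genes of the list, puf-8 (log2 -0.097), fbf-1 (-0.38) and fbf-2 (-0.48), did not pass and their libraries overlapped wild type, and the family was singled out after the values were seen. puf-11 had 273 ± 17.9 CPM in crh-1(syb385) and 166 ± 16.3 CPM in wild type (adjusted p = 0.000169). The gene that fell was moe-3, with 8.65 ± 0.772 CPM in crh-1(syb385) and 18.7 ± 4.08 CPM in wild type (log2 -1.11, adjusted p = 0.000481). In crh-1(n3315), 20 of the 36 were higher and 2 lower, with a median of 0.54. lin-41, which controls oocyte growth and meiotic maturation, rose most, with 479.8 ± 41.6 CPM in crh-1(n3315) and 218 ± 73.6 CPM in wild type (log2 1.14, adjusted p = 0.000392), and moe-3 was again lowest at log2 -1.18. The same 5 puf genes had log2 changes between 0.94 (puf-6) and 1.08 (puf-11) there. When libraries were scaled to oocyte and eggshell genes, none of the 36 was higher in either mutant, and 19 were lower in crh-1(syb385) and 18 in crh-1(n3315), where 55.8% and 72.7% of all tested genes were lower on that scale. Without wild-type replicate 3, 7 were higher and 4 lower in crh-1(syb385), with a median of 0.04. In that fit 1764 of 14739 tested genes were higher, and the share lower is not given here.

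Known targets of the 10 proteins were measured too, beside shares of all tested genes of 7.42% higher in crh-1(syb385) and 20.3% higher in crh-1(n3315). Of 11 such mRNAs, 3 were higher in crh-1(syb385) (mom-2, mei-1 and neg-1), with a median log2 fold change of 0.25, and 9 were higher in crh-1(n3315), with a median of 0.69. neg-1, which limits mesendoderm fate in the anterior of the embryo and whose translation POS-1 represses, had 50.2 ± 3.04 CPM in crh-1(syb385) and 39.9 ± 0.950 CPM in wild type (log2 0.33, adjusted p = 0.0144). glp-1, the Notch receptor of the germline and early blastomeres, had 263 ± 35.2 CPM in crh-1(n3315) and 130.7 ± 40.8 CPM in wild type (log2 1.01, adjusted p = 0.000679). Of 12 polarity and maternal kinase genes, whose proteins place and modify the CCCH proteins in the zygote, 3 were higher in crh-1(syb385) and 8 in crh-1(n3315), with medians of 0.09 and 0.38. plk-1, a mitotic kinase that binds MEX-5 and MEX-6, led in crh-1(syb385) with log2 0.39 (adjusted p = 0.0165). par-4, a kinase of the zygotic polarity system, led in crh-1(n3315) with log2 0.80 (adjusted p = 6.8e-05). Without wild-type replicate 3, 3 polarity genes were also lower in crh-1(syb385). The share of all tested genes lower in that fit is not given here, and with that library it was 8.88%. Scaled to oocyte and eggshell genes, no gene of either list was higher, as only 1.47% of all tested genes were in crh-1(syb385) and 1.39% in crh-1(n3315).

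Germ granules, in which PIE-1, MEX-1 and POS-1 accumulate in the embryo, were represented by 11 genes. Of these 5 were higher in crh-1(syb385) and 9 in crh-1(n3315), with medians of 0.36 and 0.80 and none lower. Among all tested genes, 7.42% and 20.3% were higher. glh-1, a helicase of the granules, had 420.0 ± 24.5 CPM in crh-1(syb385) and 259 ± 42.8 CPM in wild type (log2 0.70, adjusted p = 0.000904). meg-3, which scaffolds the granules, had 107 ± 6.28 CPM in crh-1(n3315) and 48.4 ± 13.2 CPM in wild type (log2 1.14, adjusted p = 7.4e-05). Scaled to oocyte and eggshell genes, no granule gene was higher in either mutant, while 3 were lower in crh-1(syb385) and 5 in crh-1(n3315), against 55.8% and 72.7% of all tested genes.

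Most oocyte and eggshell genes were higher too. Of all tested genes, 7.42% were higher in crh-1(syb385), and 20.3% were higher and 21.7% lower in crh-1(n3315). Of 13 oocyte and eggshell genes, 11 were higher in crh-1(syb385), with a median log2 fold change of 0.50, and 11 were higher and 1 lower in crh-1(n3315), with a median of 0.91. Their summed level was 8342 to 9400.2 CPM in crh-1(syb385), 10360.2 to 11211 CPM in crh-1(n3315) and 5330.0 to 7184 CPM in wild type, without overlap. egg-5, a pseudophosphatase of the egg-to-embryo transition, led in crh-1(syb385) with log2 0.67 (adjusted p = 0.000592). chs-1, the chitin synthase of the eggshell, led in crh-1(n3315) with log2 1.32 (adjusted p = 2.9e-05), whereas cav-1, a caveolin, was lower there with log2 -0.83 (adjusted p = 0.000133). How far the level of the 10 genes moved with this oocyte material was not tested. The rescaling above shifts all genes alike, so it cannot decide this.

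Meiotic genes of the earlier germline moved less. Of 16, none passed in crh-1(syb385) by edgeR or DESeq2 (1 was higher at an unadjusted p under 0.05), with a median log2 fold change of -0.02, and 7 were higher and 1 lower in crh-1(n3315), with a median of 0.14. All tested genes had shares of 7.42% higher and 8.88% lower in crh-1(syb385), and of 20.3% higher and 21.7% lower in crh-1(n3315). zim-1, a pairing-center protein, had log2 0.78 in crh-1(n3315) (adjusted p = 4.4e-05), and syp-3, of the synaptonemal complex, log2 -0.57 (adjusted p = 0.00738). Their summed level lay between 836 and 933 CPM in crh-1(syb385), 971 and 1034 CPM in crh-1(n3315), and 861 and 947 CPM in wild type. Scaled to oocyte and eggshell genes, 14 meiotic genes were lower in crh-1(syb385) and 12 in crh-1(n3315), against 55.8% and 72.7% of all tested genes. Scaled to the meiotic genes themselves, all 10 regulators were still higher in crh-1(n3315) with a median of 0.80, but none was 2-fold higher. The median of all tested genes was -0.27 on that scale, a shift of -0.22, and their shares that passed on it are not given here.

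Genes first transcribed by the embryo itself were near background. By edgeR, 7.42% of all tested genes were higher and 8.88% lower in crh-1(syb385), and 20.3% and 21.7% in crh-1(n3315). Of 12 zygotic genes, 8 were tested, and none passed in either mutant by edgeR or DESeq2 (1 higher in crh-1(syb385) and none in crh-1(n3315) at an unadjusted p under 0.05). Their summed level was 26.4 to 33.3 CPM in crh-1(syb385), 23.5 to 35.8 CPM in crh-1(n3315) and 18.5 to 39.7 CPM in wild type, and tbx-35 was at 0 in all crh-1(syb385) libraries. Of 15 sperm genes, 8 were tested and none passed relative to wild type by edgeR, while DESeq2 called 1 higher in crh-1(n3315), as did an unadjusted p under 0.05. Their summed level was 19.5 to 31.6 CPM in crh-1(syb385), 19.8 to 39.2 CPM in crh-1(n3315) and 16.2 to 25.9 CPM in wild type, with spe-19 at 0 in all wild-type libraries. With 8 tested genes at such low levels, the absence of edgeR calls in either list does not show unchanged levels.

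Somatic tissues were represented by genes of muscle, intestine, neuron and cuticle. Of 16 muscle, intestine, neuron and cuticle genes, 2 were higher and 2 lower in crh-1(syb385) and 8 were higher and 2 lower in crh-1(n3315), with median log2 fold changes of 0.24 and 0.53. All tested genes had shares of 7.42% higher and 8.88% lower in crh-1(syb385), and 20.3% higher and 21.7% lower in crh-1(n3315). act-5, an intestinal actin, had log2 1.44 in crh-1(syb385) (adjusted p = 0.0114, at 514 ± 57.7 CPM in the mutant and 189 ± 121 CPM in wild type). rol-6, a cuticle collagen, had log2 1.63 in crh-1(n3315) (adjusted p = 0.0289, at 2.32 ± 1.66 CPM in the mutant and 0.757 ± 0.567 CPM in wild type). At these low levels its libraries overlapped wild type, and the interval of its fold change was wide, 1.35 to 7.1. dpy-7, another collagen, was lower in both, log2 -0.75 (adjusted p = 0.00264) and -2.55 (adjusted p = 3.6e-08). Their summed level was 3161 to 4540 CPM in crh-1(syb385), 4776 to 6084 CPM in crh-1(n3315) and 1599.7 to 3428 CPM in wild type. The sums of crh-1(syb385) and wild type overlapped, and those of crh-1(n3315) lay above both. Scaled to oocyte and eggshell genes, 1 was higher and 6 lower in crh-1(syb385), and 1 higher and 7 lower in crh-1(n3315), against the same 55.8% and 72.7% lower of all tested genes. The part of tissue proportions in the changes of the 10 regulators was not tested.

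**Figure D5:**
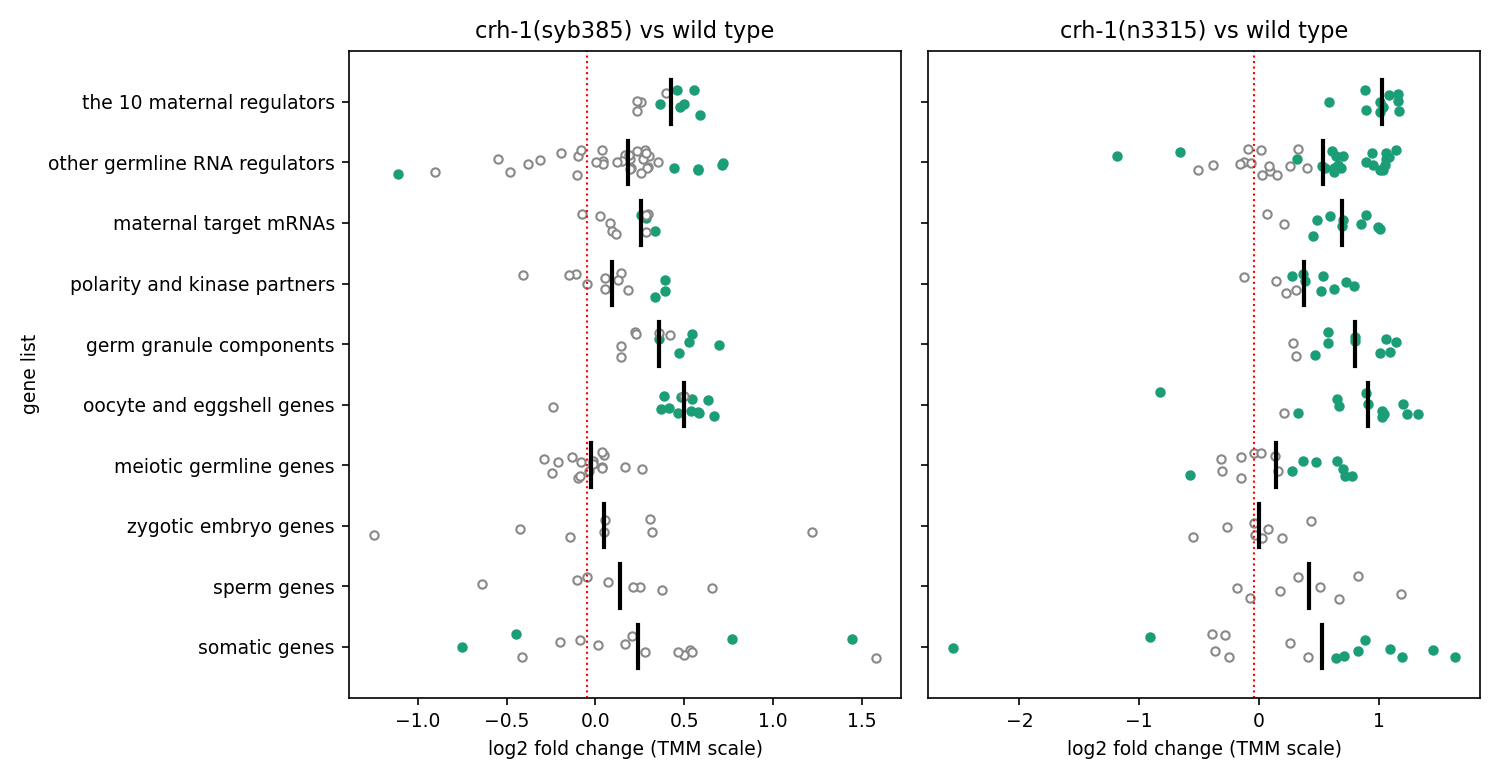
Log2 fold changes on the TMM scale of the tested genes of each list (points, filled at an adjusted p below 0.05) with the list median (bar), for crh-1(syb385) and for crh-1(n3315) relative to wild type, and a dotted line at the median of all tested genes. The medians of the 10 regulators, 0.43 and 1.02, lay close to those of oocyte and eggshell genes, 0.50 and 0.91, and were -0.086 and 0.13 when libraries were scaled to oocyte and eggshell genes.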

How the data were processed

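Poly(A)-selected RNA of whole day-1 adult worms was sequenced from both ends in 12 libraries, 4 independent biological replicates for each of 3 genotypes. The authors ran STAR v2.7.5a against build WBcel235 and used FeatureCounts v1.5.0 to sum exonic reads for each gene, after base calling with bcl2fastq v2.19 per the submitters' processing notes. The deposited values are whole-number read counts of single libraries, neither normalized nor pooled, with each gene's exonic length. The stated options set the feature type and the gene grouping and name no strand or multi-mapping setting, for which the tool's defaults are unstranded counting without multi-mapping reads. The annotation release is not given in the sources used here. For differential expression the authors ran DESeq2 v1.26.0, and none of its output was used here.

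A symbol was found for 43693 genes in the reference's name table, and 1 listed gene, puf-10, was matched through RefSeq's WBcel235 coordinates. Genes passing filterByExpr (minimum count 10, minimum total 15; edgeR v4.0.16 under R v4.3.3) were normalized by TMM. One quasi-likelihood fit to the 12 libraries, with a mean for each genotype and no other covariate, gave all comparisons (limma v3.58.1 is loaded by edgeR). Fold changes used a prior count of 0.125. Adjusted p is after Benjamini-Hochberg, over 14511 tested genes. Calls needed an adjusted p below 0.05, and DEGs also a change of 2-fold or more, as in the study's methods (a figure legend of the study gives a stricter one). TPM was computed from the counts and exonic lengths. Intervals cover 95%, SDs are over 4 libraries, and limits of counting do not account for PCR copies. Total counts per library lay between 16348586 and 25369267. The code was tested on simulated data with known fold changes.

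All 10 genes are named. Also named are genes whose exons overlap theirs, the 3 genes nearest to their mean profile, crh-1, and from each of 9 other lists (142 genes) the largest rise and fall that passed in each comparison with wild type; others were named after their values were seen. The members and lists were chosen with earlier results of these data known. Alternatives were the size factors and the test of DESeq2 v1.42.0, upper quartile scaling, scaling to meiotic genes, no filter, fits of 2 genotypes, a replicate block, the 2-fold threshold inside the test and leaving out each library. Scaling to oocyte and eggshell genes and total counts alone were added after seeing the data. No sequences were analysed here.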

Additional observations from a re-analysis of the deposited data

Results flagged for a closer look

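In 2 of the 30 sets of 4 libraries (10 genes in 3 genotypes), a single library lay far from the other 3 by Dixon's criterion, which chance alone meets in about 1 of 20 sets. pie-1 had 40.2 CPM in wild-type replicate 3, against 55.4 to 57.0 CPM in the other wild-type libraries. oma-2 had 332 CPM in crh-1(syb385) replicate 4, against 293 to 296 CPM in the others of that genotype.

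For 8 of the 10 genes the response relative to wild type differed between the mutants in the direct test of crh-1(n3315) against crh-1(syb385) (edgeR, p adjusted over all tested genes), in which 10.6% of all tested genes were higher and 7.42% lower. The log2 differences were 0.93 for spn-4 (adjusted p = 0.000527), 0.78 for mex-3 (0.00126), 0.69 for oma-1 (0.00533), 0.69 for mex-6 (0.00176), 0.67 for pos-1 (0.000428), 0.66 for oma-2 (0.00312), 0.45 for mex-5 (0.00877) and 0.43 for mex-1 (0.0235). Each of these 8 genes was higher in 4 of 4 crh-1(n3315) libraries than in any crh-1(syb385) library. So were pie-1 and puf-5, which did not pass, and 19.2% of all tested genes. Scaled to oocyte and eggshell genes, 5 of them (mex-3, mex-6, oma-1, oma-2, spn-4) still passed. On the TMM scale, the call on mex-1 was lost when any 1 of 4 libraries was left out.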

How the results depend on the processing

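Scaling moved the results most. Relative to TMM, scaling to oocyte and eggshell genes shifted the median log2 fold change of all tested genes by -0.54 in crh-1(syb385) and -0.90 in crh-1(n3315) relative to wild type and by -0.36 between the mutants, total counts alone by -0.15 and -0.18 relative to wild type, and scaling to meiotic genes by -0.22 in crh-1(n3315) relative to wild type and -0.20 between the mutants. A scaling shifts the 10 genes and all genes alike, so it can hardly change the median of the 10 minus that of all genes. That difference ran from 0.41 to 0.55 in crh-1(syb385) and from 0.96 to 1.14 in crh-1(n3315) when single libraries were left out. With oocyte and eggshell scaling, 3 genes passed in crh-1(syb385) (0 higher, 3 lower; median -0.086), 4 in crh-1(n3315) relative to wild type (3 higher, 1 lower, 0 at 2-fold; median 0.13) and 5 in crh-1(n3315) relative to crh-1(syb385) (median 0.30). Under it, log2 fold changes in crh-1(syb385) relative to wild type were -0.26 for pie-1, -0.056 for mex-1, -0.29 for mex-3, -0.044 for mex-6, -0.18 for pos-1, -0.12 for oma-1, -0.018 for oma-2 and -0.28 for spn-4. In crh-1(n3315), pie-1 was -0.30 (adjusted p = 0.0154) and puf-5 -0.0017 relative to wild type, and -0.038 and -0.064 relative to crh-1(syb385). The lowest adjusted p of pie-1 relative to wild type over these alternatives, 4.2e-05, was for a rise. Scaling to meiotic genes gave medians of 0.80 in crh-1(n3315) relative to wild type and 0.46 relative to crh-1(syb385), where mex-1 and mex-5 no longer passed. The 7 genes past 2-fold in crh-1(n3315) became 4 with upper quartile scaling, and 0 with meiotic scaling, with total counts alone and with the threshold inside the test, which asks for more than a 2-fold estimate by construction. With total counts alone, mex-1 (adjusted p = 0.0506) and pos-1 (0.101) did not pass in crh-1(syb385).

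The number of all genes that passed changed with the library left out. Without wild-type replicate 3, 1764 of 14739 tested genes were higher in crh-1(syb385), against 1077 of 14511 with it. The counts of the 10 genes below therefore do not by themselves set them apart from all genes. Leaving out single libraries gave 5 to 7 genes in crh-1(syb385), 10 in each fit of crh-1(n3315) and 7 to 10 between the mutants. At 2-fold they gave 0, 4 to 7 (4 without wild-type replicate 3) and 0 to 1 (spn-4, without crh-1(n3315) replicate 4). Medians were 0.36 to 0.50, 0.94 to 1.09 and 0.62 to 0.72. Replicate numbers did not pair the libraries: same-numbered libraries correlated between -0.079 and 0.12 in their deviations from the genotype means. A replicate block gave the same counts (6, 10 and 8, and 0, 7 and 0 at 2-fold) and medians of 0.44, 1.03 and 0.66. Where no cause is named, the cause was not tested. All 10 genes had enough counts to be tested, the smallest being 738, whereas 4 zygotic and 7 sperm genes were too low to test. The part of depth in the results was not tested.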
